A study of Mus musculus with 39 samples.

Results

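Chemokines and their receptors were followed in the lungs of male mice that breathed mainstream tobacco smoke (MTS), either up to the time of sampling or before a break. All genes were taken whose symbol in the array's probe annotation begins with Ccl, Cxcl, Cx3cl, Xcl, Ccr, Cxcr, Cx3cr or Xcr and a digit, apart from Ccl17, Ccl22, Ccr7 and Cxcl10. These are 48 of the 16887 named genes on the array, 31 ligands and 17 receptors, and the rule uses no expression value. They are covered by 49 of the 20868 gene probes, and 39 of the 49, each for a different gene, were bright enough to be tested among 17560 probes in all.

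The animals were C57BL/6 × CBA F1 hybrid males of 8 to 10 weeks. The smoke groups received nose-only the smoke of 2 daily cigarettes, on 5 days of each week, and the exposure ran for 6 or 12 weeks with a lead-up of 2 weeks included, and the sham groups were held in the restrainers without smoke. The groups named smoke and break, and their break shams, had 6 further weeks without exposure. Each of the 8 groups held 5 mice, except 12 week smoke with 4. RNA from part of 1 lung per mouse, labelled with Cy5, was hybridized against a Cy3-labelled universal mouse reference RNA on 2-colour arrays, and 39 arrays were analysed. The labels give 3 h after exposure for all groups, including those with a break.

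Chemokines are small secreted proteins that guide leukocytes along a gradient, and they act through G protein-coupled receptors named after the ligands they bind. CXC ligands such as Cxcl1 and Cxcl5 draw neutrophils through Cxcr2, CC ligands such as Ccl2 and Ccl7 draw monocytes through Ccr2, and a homeostatic group, Cxcl12, Cxcl13 and Ccl20 among them, places lymphocytes and stem cells in tissues. In the lung, airway and alveolar epithelium, endothelium and macrophages are all known sources, and neutrophil- and macrophage-rich inflammation is a known feature of tobacco smoke exposure.

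Values are log2 ratios of lung to reference. They describe 1 probe across arrays and do not rank genes by abundance. Each array's median Cy5 signal was 2.2 to 8.94 times its local background, and 25 to 45 of the 49 member probes per array were above the negative-control threshold. The lung epithelial markers, 9 in number, averaged 2.33 to 4.44 per array, so the tissue matched its label. Cyp1a1, a cytochrome P450 induced by smoke through the aryl hydrocarbon receptor, lay between 5.07 and 8.06 in the 9 smoke arrays and between 0.45 and 2.81 in 29 of the other 30. The exception was the array labelled 6 week sham m2, at 6.46, with Cyp1b1 also inside the smoke range. In the running order of the date labels it stands where each of the other 4 runs holds a 12 week smoke array, and the run without a 6 week sham array is another. It was kept under its label, and whether it belongs to 12 week smoke was not tested. Many values that use the 6 week sham group are also given with this array left out. Among those given only with it are the differences between smoke effects. In whole tissue, fewer cells of a type and less RNA per cell cannot be told apart.

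The sequences before the starts of 4 members whose values carry the results below are shown first, because Cxcl1, Cxcl15 and Cxcl13 lie on the same chromosome and Cx3cl1 is the member called for smoke. RefSeq promoters (GRCm38.p6) matched 35 of the 48 genes. The 250 bases before the start are printed from the plus strand, on which all 4 genes lie, with matches to the kappaB consensus or to TATAAA in capitals. They are chr8:94771930-94772179 for Cx3cl1, chr5:90890995-90891244 for Cxcl1, chr5:90794284-90794533 for Cxcl15 and chr5:95956689-95956938 for Cxcl13.
Cx3cl1: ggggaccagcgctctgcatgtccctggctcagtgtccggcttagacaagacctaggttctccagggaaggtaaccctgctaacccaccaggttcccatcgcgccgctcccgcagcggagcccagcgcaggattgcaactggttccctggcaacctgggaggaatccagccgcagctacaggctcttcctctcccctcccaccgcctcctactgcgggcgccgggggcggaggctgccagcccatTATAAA
Cxcl1: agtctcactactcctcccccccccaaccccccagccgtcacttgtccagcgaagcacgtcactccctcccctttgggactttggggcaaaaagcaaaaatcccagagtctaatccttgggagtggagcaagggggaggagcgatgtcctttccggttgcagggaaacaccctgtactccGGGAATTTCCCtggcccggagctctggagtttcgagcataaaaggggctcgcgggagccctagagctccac
Cxcl15: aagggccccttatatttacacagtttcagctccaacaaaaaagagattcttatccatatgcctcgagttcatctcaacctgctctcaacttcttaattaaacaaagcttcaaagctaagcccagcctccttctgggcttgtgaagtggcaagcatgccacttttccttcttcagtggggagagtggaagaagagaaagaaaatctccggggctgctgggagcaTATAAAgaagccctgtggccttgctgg
Cxcl13: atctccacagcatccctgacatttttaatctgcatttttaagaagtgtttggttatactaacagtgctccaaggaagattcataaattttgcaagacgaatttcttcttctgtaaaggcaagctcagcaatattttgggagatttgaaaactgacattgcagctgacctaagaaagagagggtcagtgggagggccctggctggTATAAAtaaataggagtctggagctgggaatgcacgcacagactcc
The capitals in Cxcl1 are a pair of overlapping kappaB matches that begin 71 and 70 bases before the start, and those in the other 3 are TATAAA. With both strands searched, the kappaB consensus was found in this window for 8 of the 35 members (22.9%) and for 8.23% of all 27025 genes in the table. The members were Ccl1, Ccl9, Ccl20, Ccr1, Ccr3, Ccr6, Cxcl1 and Cxcl2. TATAAA was found for 11 of 35 (31.4%, all genes 14.3%), and GCGTG, the core of the aryl hydrocarbon receptor's binding motif, for 12 of 35 (34.3%, all genes 30.9%). TGANTCA was present in 4 of 35 (all genes 7.82%) and TGACNNNGC in 3 of 35 (all genes 11.5%). These are matches of letters and no test was made of them.

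The first question was which chemokines and receptors differed between smoke and sham. Cx3cl1 was lower with smoke over both durations, and it was the only 1 of the 39 tested members that passed an adjusted p of 0.05 by limma there. At 6 weeks no member passed (all probes 0.0626%), at 12 weeks none passed (all probes 0.433%), and for both durations together 1 did (2.56%, all probes 1.22%). At an unadjusted p under 0.05 the members numbered 5 of 39 at 6 weeks, with 2 higher and 3 lower (12.8%, all probes 8.41%), 7 at 12 weeks, with 5 higher and 2 lower (17.9%, all probes 9.37%), and 13 for both durations, with 8 higher and 5 lower (33.3%, all probes 12.2%). The median log2 fold change of the members was -0.04 at 6 weeks and 0.06 at 12 weeks, and over all probes it was 0.01 and 0.0054. Leaving out the array labelled 6 week sham m2, the counts passing the adjusted threshold stayed at 0, 0 and 1, and the unadjusted counts were 8 at 6 weeks (3 higher, 5 lower), 7 at 12 weeks and 15 for both durations (9 higher, 6 lower).

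**Figure D1:**
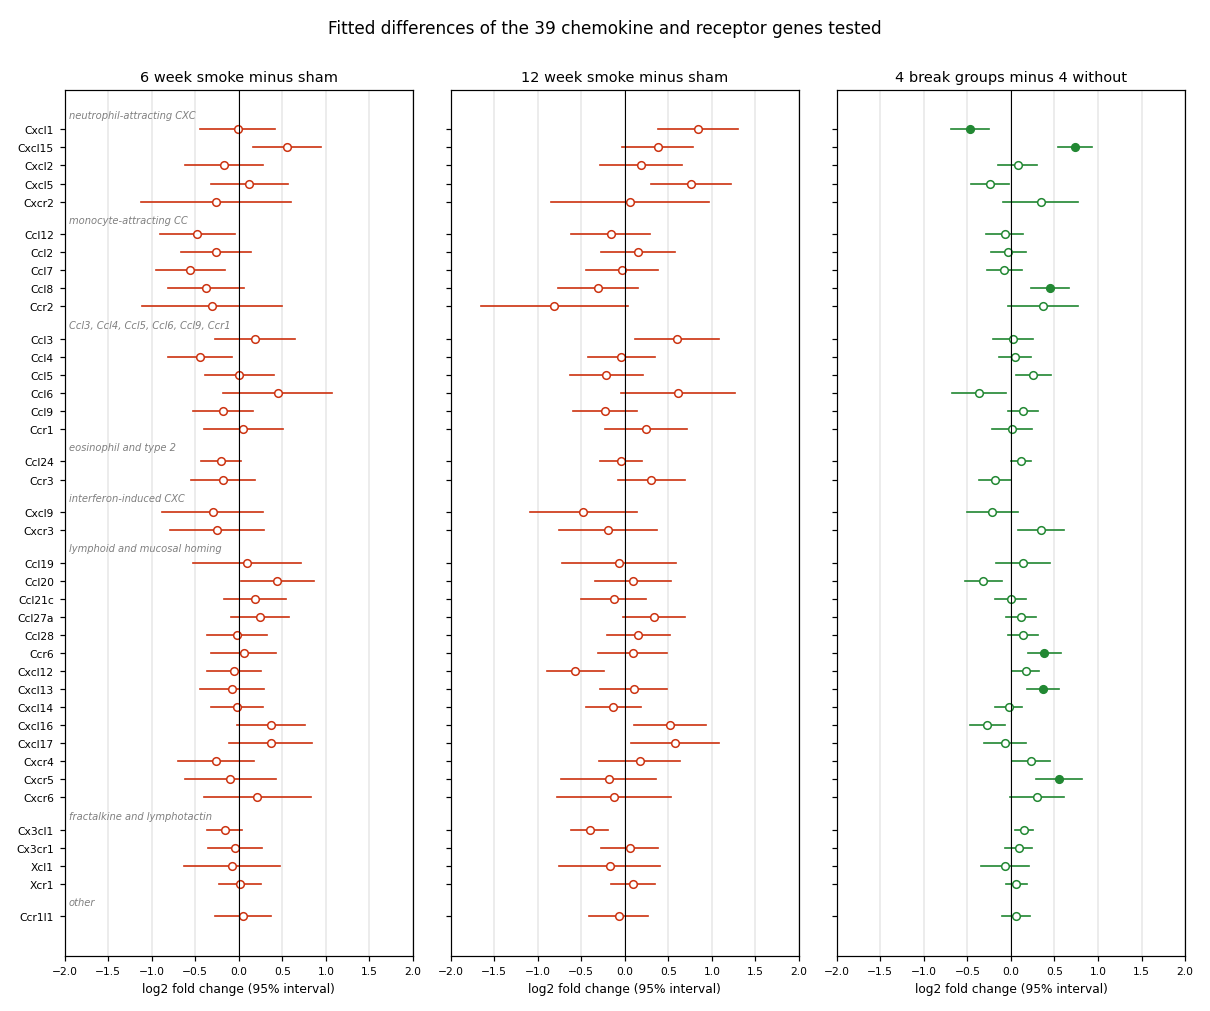
Log2 fold changes (points) with 95% intervals (bars) of the 39 genes tested, in blocks by class, for 6 week smoke minus sham, 12 week smoke minus sham, and the 4 break groups minus the 4 groups without a break. Filled points passed an adjusted p of 0.05, which no gene did in the first 2 panels and 6 did in the third.

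Cx3cl1 encodes fractalkine, a membrane-bound chemokine of endothelium and epithelium that can be shed. Its log2 ratios were 0.03, 0.17 (m2), 0.23, 0.69 and 0.60 in 6 week sham and 0.06, 0.0022, 0.17, 0.35 and 0.11 in 6 week smoke. In 12 week sham they were 0.25, 0.36, 0.25, 0.44 and 0.81, against -0.02, -0.25, -0.06 and 0.29 in 12 week smoke. At 12 weeks 3 of the 4 smoke lungs were below every sham lung, while the 6 week groups overlapped more widely. Over both durations the log2 fold change was -0.28 (SE 0.07, 0.822-fold, adjusted p = 0.0445 by limma). It was -0.16 at 6 weeks, with an unadjusted p above 0.05 by limma, and -0.40 at 12 weeks. The difference was negative in all 5 label runs, the successive sets of mice in the order of the date labels. The run without a 12 week smoke array and the run without a 6 week sham array each rest on a single duration. Leaving out the array labelled 6 week sham m2 gave an adjusted p of 0.0146. The call was a narrow one. It was lost on leaving out any of 22 of the 39 arrays, with adjusted p up to 0.118, and under 6 of 16 other processing settings, with adjusted p up to 0.252, among them the authors' log2 ratios, no block and no filter. The direction was the same in all 16.

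After a break the values of Cx3cl1 ran from 0.20 to 0.46 in 6 week break sham and from 0.14 to 0.52 in 6 week smoke and break, and from 0.21 to 0.53 and 0.26 to 0.49 in the 12 week pair. The smoke and break lungs thus lay within or near the range of their shams. The difference between the smoke effects without and with a break was -0.27 (SE 0.10, adjusted p = 0.341 by limma). Cx3cr1, the fractalkine receptor of monocytes and NK cells, had a fold change near 0 for both durations (0.01, 95% interval -0.22 to 0.24). Its lung signal was weak, at a median of 230 over a background of 111.5, and above the threshold on 30 of 39 arrays. A second probe of Cx3cl1 was above the threshold on 4 arrays and was not tested.

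The 5 neutrophil-attracting CXC members tested all had positive fold changes at 12 weeks, with a median of 0.38, and 2 positive and 3 negative ones at 6 weeks. Cxcl1, the mouse keratinocyte chemoattractant, had log2 ratios of -3.34, -3.20, -3.24, -4.02 and -4.24 in 12 week sham and -2.86, -2.87, -2.68 and -2.68 in 12 week smoke. Every smoke lung was above every sham lung, and the fold change was 0.84 (SE 0.22, 1.79-fold), but the adjusted p was 0.103 by limma. How many of all probes separated these groups as fully was not counted. At 6 weeks the values of Cxcl1 were -3.28, -3.03 (m2), -3.80, -4.02 and -4.10 in sham and -3.43, -3.79, -3.91, -3.65 and -3.37 in smoke, which overlap fully. The fold change there was -0.01, or 0.13 with the array labelled 6 week sham m2 left out. The 12 week effect minus the 6 week effect was 0.85 (SE 0.31, adjusted p = 0.971 by limma), and no member passed in that comparison (all probes 0%; 3 of 39 at an unadjusted p under 0.05, 7.69%, all probes 4.86%).

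Cxcl5, an epithelial ligand of the same receptor, went with Cxcl1. Its ratios were -2.40, -3.11, -2.19, -2.70 and -3.26 in 12 week sham and -2.02, -1.88, -2.10 and -2.22 in 12 week smoke. Only the smoke lung at -2.22 reached into the sham range, and the fold change was 0.76 (SE 0.23, 1.70-fold, adjusted p = 0.164 by limma). Cxcl2 had 0.18 (SE 0.23) at 12 weeks. Cxcr2, the receptor they share on neutrophils, spread from -0.97 to 1.75 among the 9 smoke arrays alone, and its 12 week interval ran from -0.85 to 0.97. Of 7 neutrophil markers tested, none passed at either duration. At 6 weeks all 7 had positive fold changes, with a median of 0.18 and a highest value of 1.07, and at 12 weeks 3 did, with a median of -0.04.

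**Figure D2:**
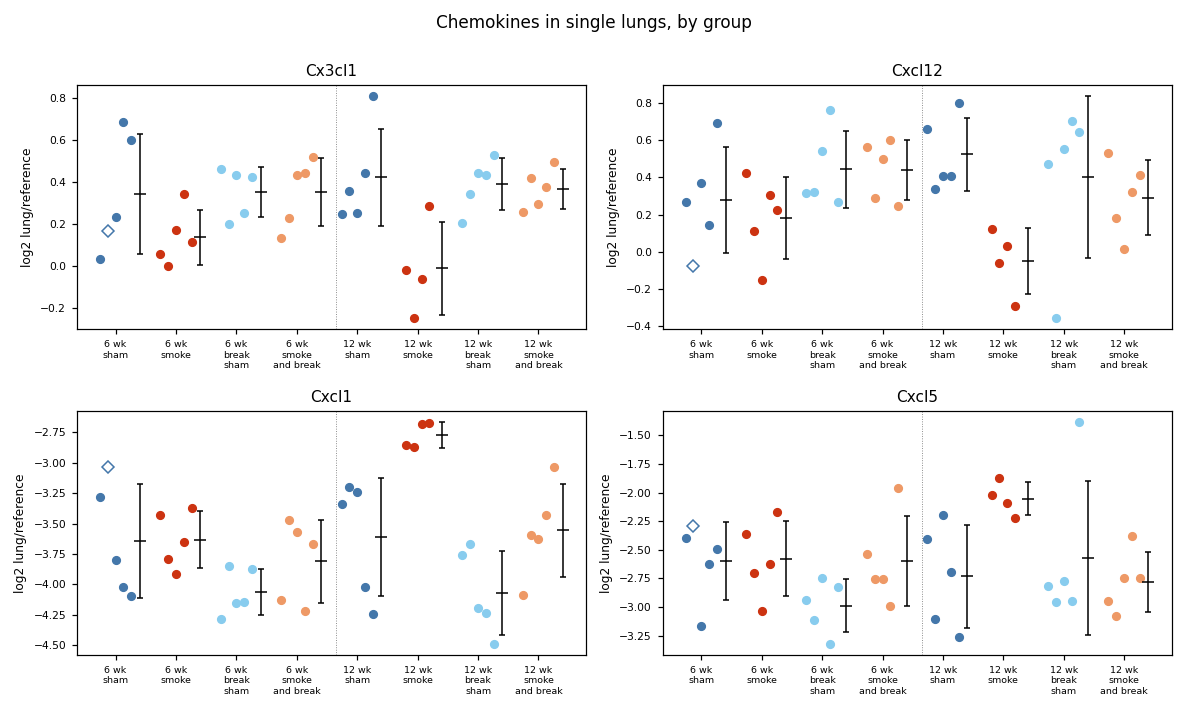
Log2 ratio of lung to reference of Cx3cl1, Cxcl12, Cxcl1 and Cxcl5 in each lung, by group, with the mean and SD beside each group; an open diamond marks sham array m2 of the 6 week arm. The 4 lungs of 12 week smoke are all below 12 week sham for Cxcl12, and all above it for Cxcl1. Both genes were named for their large 12 week differences, and neither passed the adjusted threshold there. The share of all probes so separated was not counted.

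Cxcl12, the stromal ligand that retains haematopoietic cells through Cxcr4, went the other way at 12 weeks. It was 0.66, 0.34, 0.41, 0.41 and 0.80 in sham and 0.12, -0.06, 0.03 and -0.29 in smoke, so that the groups did not overlap. Here too the share of all probes without overlap was not counted. The fold change was -0.57 (SE 0.16, 0.675-fold, adjusted p = 0.143 by limma). In the 6 week pair it was -0.05 (SE 0.15), and -0.14 without the array labelled 6 week sham m2, whose own value was -0.07. On 1 array the Cy5 signal of Cxcl12 reached the scanner limit. Fibroblast markers, which share a stromal source with Cxcl12, moved in the same direction: 2 of 5 passed as lower at 12 weeks and their median was -0.37. Endothelial markers did not: all 5 were above 0 at 12 weeks, with a median of 0.19, and none passed. The part of either cell type in the Cxcl12 result was not tested. Cxcr4 gave 0.17 (SE 0.23) at 12 weeks, and Ackr3, the scavenging receptor of Cxcl12 that is listed with the other genes of the system, did not pass in either smoke comparison.

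The members with the largest positive differences over both durations, none past the adjusted threshold, were Ccl6, Cxcl17, Cxcl15 and Cxcl16, which are picked here for their values and come from 3 classes. Ccl9, another macrophage chemokine, lay at -0.18 at 6 weeks (-0.37 without m2). Cxcl15 (lungkine), an airway and alveolar epithelial chemokine, differed by 0.55 at 6 weeks (0.56 without m2) and 0.38 at 12 weeks, and by 0.46 (SE 0.14, adjusted p = 0.0965 by limma, and 0.101 without m2) over both. Cxcl16, a membrane-bound ligand and scavenger receptor of macrophages, differed by 0.45 over both durations (SE 0.14, adjusted p = 0.12), and by 0.40 without m2. The 9 smoke arrays had Cxcl16 ratios of 1.41 to 2.26 with a median of 1.69, and the 10 sham arrays 0.84 to 1.90 with a median of 1.25. Cxcl17, a mucosal chemokine, differed by 0.47 (SE 0.17), and Ccl6, a macrophage chemokine of rodents, by 0.53 (SE 0.22). Without m2 these were 0.48 and 0.53. Ccl6 in 6 week smoke was 3.96, 5.91, 5.26, 4.70 and 5.56, against 3.97, 4.49 (m2), 3.93, 5.11 and 4.93 in sham. The lungs with the highest Ccl6 were thus smoke lungs, but the lowest smoke lung was level with the sham lungs.

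Macrophage markers moved in the same direction as these genes. Of 9 tested, 4 passed as higher over both durations (Pparg, Itgax, Marco and Chil3, with and without m2), and all 9 had positive fold changes at 6 weeks (median 0.45) and at 12 weeks (median 0.70). The mean of the 9 markers was 1.82 to 2.65 in the smoke arrays and 1.11 to 1.86 in the sham arrays. All 9 were above the threshold in every array of the 4 groups compared. Their part in the values of Cxcl16, Ccl6 and Ccl3 was not tested. Ccl3 (macrophage inflammatory protein 1 alpha) had ratios of -3.64, -1.98, -3.02 and -2.65 in 12 week smoke and of -3.60 to -3.31 in 12 week sham. Here 3 of the 4 smoke lungs were above all sham lungs, with a fold change of 0.60 (SE 0.24, adjusted p = 0.379 by limma). Its receptor Ccr1 differed by 0.24 (SE 0.23).

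The members listed as monocyte-attracting CC ligands, with Ccr2, had negative fold changes over both durations in 5 of 5. These ran from -0.56 to -0.06, with a median of -0.32, against 0.0058 over all probes. None passed. Ccl7, a monocyte chemoattractant, was -2.04, -2.33 (m2), -2.17, -2.62 and -2.81 in 6 week sham and -2.24, -3.66, -2.91, -3.11 and -2.96 in 6 week smoke. Apart from the first, the smoke lungs were below all sham lungs, and the fold change was -0.56 (SE 0.19, adjusted p = 0.379 by limma). For Ccl12, another Ccr2 ligand, the 6 week fold change was -0.48 (SE 0.21), and for Ccl8 it was -0.37 (SE 0.21). Without m2 the 3 values were -0.48 for Ccl7, -0.40 for Ccl12 and -0.48 for Ccl8. At 12 weeks Ccl7 and Ccl12 were at -0.03 and -0.16, and Ccl2 at 0.15. Ccr2 itself, the receptor of classical monocytes, was 3.05, 2.78, 2.43, 3.96 and 2.97 in 12 week sham and 1.57, 2.77, 2.29 and 2.43 in 12 week smoke (fold change -0.81, SE 0.41, adjusted p = 0.565 by limma). The reference signal of Ccr2 was weak, at a median of 138 over a background of 101. Its spot carried a quality mark on all 39 arrays. Of 4 monocyte markers, 1 passed as higher over both durations (Cd14, 0.47) and the other 3 were below 0, with a median of -0.22. At 12 weeks they ran from -0.82 to 0.50, and none passed.

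Ccl4 (macrophage inflammatory protein 1 beta) moved with the array labelled 6 week sham m2. It was -2.62, -3.25 (m2), -2.40, -1.93 and -2.11 in 6 week sham and -2.99, -2.03, -2.50, -3.32 and -2.94 in 6 week smoke. The fold change was -0.44 (SE 0.18, adjusted p = 0.473) with that array and -0.61 (adjusted p = 0.14 by limma) without it. Ccl20, the ligand of Ccr6, differed by 0.44 (SE 0.21) at 6 weeks and by 0.59 without it. Neither passed. The interferon-induced Cxcl9 and its receptor Cxcr3 had negative fold changes at both durations, from -0.48 to -0.20. The eosinophil-attracting Ccl24 and its receptor Ccr3 lay between -0.20 and 0.30.

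After the break, no member differed between smoke and break and break sham at an adjusted p under 0.05, at 6 weeks (all probes 0%) or at 12 weeks (all probes 0%). At an unadjusted p under 0.05 there were 3 of 39 in the 6 week arm (7.69%, all probes 4.32%) and 2 in the 12 week arm (5.13%, all probes 6.43%). Cxcl1 in the 12 week arm was -4.09, -3.60, -3.63, -3.43 and -3.04 in smoke and break and -3.76, -3.67, -4.19, -4.23 and -4.49 in break sham. Its fold change there was 0.51 (SE 0.21, adjusted p = 0.737 by limma), with both groups spread widely. Ccr2 had the lowest fold change of the members in both arms, -0.70 at 6 weeks and -0.72 at 12 weeks. Neither had an unadjusted p under 0.05 by limma. Its group means were 2.66 in smoke and break and 3.36 in break sham at 6 weeks, and 2.96 and 3.68 at 12 weeks. These ratios too rest on the weak reference signal of Ccr2. For both durations, the smoke effect without a break minus that with a break passed for no member (all probes 0.125%; 3 of 39 at an unadjusted p under 0.05, 7.69%, all probes 9.58%). The largest such difference was in Ccl6, 0.84 (SE 0.31, adjusted p = 0.337 by limma). Part of it came from the 6 week arm with a break, where Ccl6 averaged 3.87 in smoke and break and 4.55 in break sham. In that smoke and break group m3 and m5 were at 2.62 and 2.82, and the other lungs between 4.04 and 5.06.

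**Figure D3:**
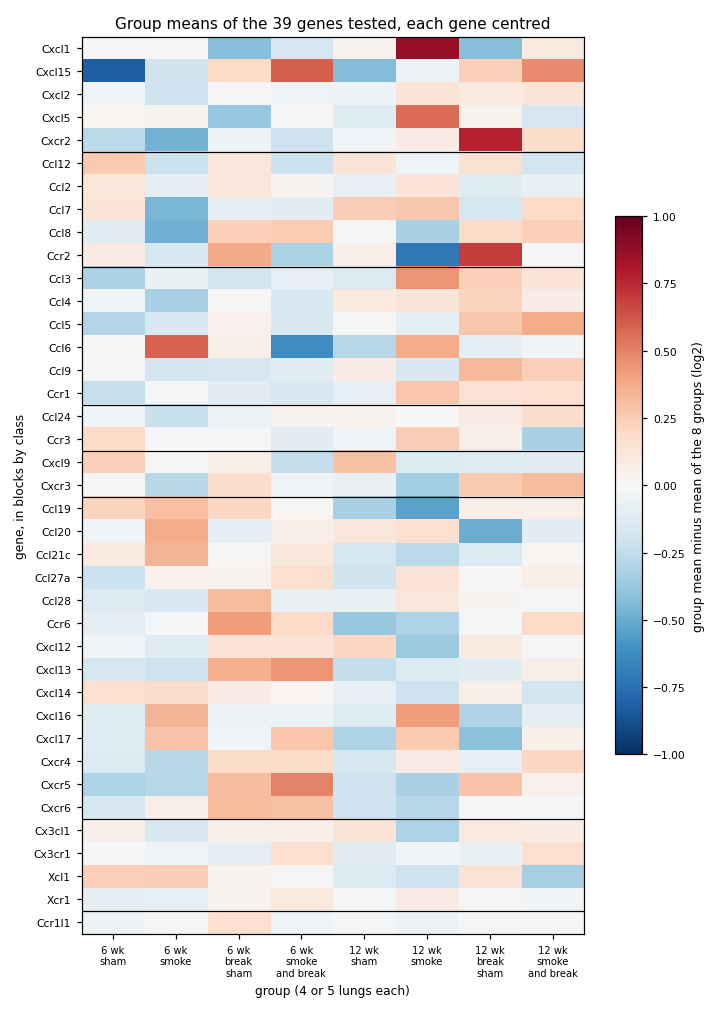
Mean log2 ratio of each of the 39 genes tested in each group (columns, 4 or 5 lungs each), after subtraction of the gene's mean over the 8 groups, with genes in blocks by class. Cxcl15 spans the widest range of group means, from 4.96 in 6 week sham to 6.38 in 6 week smoke and break.

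More members passed the test for the break than for smoke, but the break comparison set 20 arrays against 19. That for both durations of smoke set 9 against 10 and is less precise. For smoke, 2.56% of the members passed, against 1.22% of all probes. Over the members, the median absolute log2 fold change was 0.147 for the break, against 0.082 over all probes. For both durations of smoke it was 0.146, against 0.095. At 6 weeks of smoke it was 0.19, against 0.12, and at 12 weeks 0.18, against 0.12. The values for a single duration rest on a single pair of groups each and are less precise. The break comparison, the 4 break groups against the 4 groups without a break, is the break term of the study's factorial design and was added after the values had been seen. In the break groups Cxcl15, Cxcr5, Ccl8, Ccr6 and Cxcl13 were higher and Cxcl1 was lower. These are 6 of 39 members (15.4%), against 8.3% of all probes, and at an unadjusted p under 0.05 there were 16 of 39 (41%), against 20.9%. The members' median was 0.08 and that of all probes 0.0032. Mice of the break groups were sampled 6 weeks later after the start than those of the same exposure without a break, and here the break and age cannot be told apart. Among the groups without a break, 6 week smoke and 12 week smoke had smoke up to the time of sampling. The comparison thus also holds the end of smoke.

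Cxcl15 had the largest difference. Its ratios ran from 5.08 to 7.05, with a median of 6.16, in the 20 break arrays and from 4.38 to 6.11, with a median of 5.39, in the 19 others. It was 4.38, 5.11 (m2), 5.04, 4.89 and 5.39 in 6 week sham and 5.08, 6.65, 6.36, 6.14 and 5.70 in 6 week break sham, and in the 12 week arm 4.90, 5.49, 5.13, 5.36 and 5.89 in sham and 5.76, 5.94, 6.42, 5.66 and 6.36 in break sham. The break lungs were mostly above the sham lungs, with overlap at the edges. Over all groups the log2 fold change was 0.74 (SE 0.10, 1.66-fold, adjusted p = 3.23e-06 by limma), with differences of 0.62 to 0.84 in the 5 label runs, and without m2 it was 0.74 (adjusted p = 6.23e-06). Between 6 week break sham and 6 week sham it was 0.95 (SE 0.19, adjusted p = 0.0158, and 0.0327 without m2), the only 1 of 39 members called there (all probes 0.29%; unadjusted 5 of 39, all probes 9.28%). That call was also lost under 5 of 16 other settings, and the value fell to 0.0431 (adjusted p = 0.972) with marked spots left out, where 4 arrays in all keep an unmarked spot. It was lost without 6 week break sham m2, 6 week break sham m3 or 6 week sham m4, with adjusted p of 0.0516 to 0.0779. In the 12 week arm it was 0.67 (SE 0.19, adjusted p = 0.222), with no member called (all probes 0.0228%; unadjusted 4 of 39, all probes 9.56%).

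The lung signal of Cxcl15 was strong, with a median Cy5 signal of 14851 over a local background of 159, and no array reached the scanner limit. Its reference signal was weak, at a median of 230 over a background of 103, and 35 of 39 spots carried a quality mark. Taken from the Cy5 channel alone, without the reference, the break difference of Cxcl15 was 0.77 (adjusted p = 3.45e-06 by limma). With the arrays scaled to equal spread it was 0.45 and did not pass (adjusted p = 0.0729).

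Cxcr5, the homing receptor of follicular B cells, and Cxcl13, its ligand, were both higher in the break groups. Cxcr5 ran from 1.34 to 2.75, with a median of 2.16, in the break arrays and from 0.69 to 2.54, with a median of 1.503, in the others, a fold change of 0.55 (SE 0.13, adjusted p = 0.00481 by limma). Cxcl13 ran from -0.25 to 1.74, with a median of 1.21, and from 0.23 to 1.17, with a median of 0.76, a fold change of 0.37 (SE 0.09, adjusted p = 0.00775). In the 6 week arm the 5 smoke and break lungs had Cxcl13 at 1.16, 1.32, 1.41, 1.36 and 1.56, close together and mostly above the 6 week smoke lungs at 0.47, 1.17, 0.84, 0.33 and 0.76. In the 12 week arm Cxcl13 in break sham ran from -0.25 to 1.51 and overlapped sham fully, with a fold change of 0.12 (SE 0.18, adjusted p = 0.893). Ccr6, the Ccl20 receptor of B cells and some T cells, had a median of 1.33 with a break and 0.93 without, a fold change of 0.38 (SE 0.09, adjusted p = 0.00608). With that array (6 week sham m2) left out, the adjusted p values were 0.00714 for Cxcr5, 0.014 for Cxcl13 and 0.011 for Ccr6. In the Cy5 channel alone Cxcr5 passed (0.67, adjusted p = 0.00372), while Cxcl13 (0.26, adjusted p = 0.292) and Ccr6 (0.16, adjusted p = 0.337) did not.

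B cell markers moved with these 3 genes. Of 7 tested, Cd79b, Fcer2a and Ms4a1 passed as higher with a break, also without m2 (fold changes 0.61, 0.56 and 0.44), all 7 were above 0, and the median was 0.38. The mean of the 7 markers ran from -0.13 to 1.05 in the break arrays, with a median of 0.50, and from -0.40 to 0.59 in the others, with a median of 0.165. Between 1 and 5 of the 7 were above the threshold in every array of a group. The part of B cell content in the results for Cxcr5, Cxcl13 and Ccr6 was not tested. T cell markers did not pass (0 of 8, median 0.11), while 2 of 6 NK cell markers, 2 of 4 monocyte markers and 3 of 5 platelet markers did (2 of 5 without m2).

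**Figure D4:**
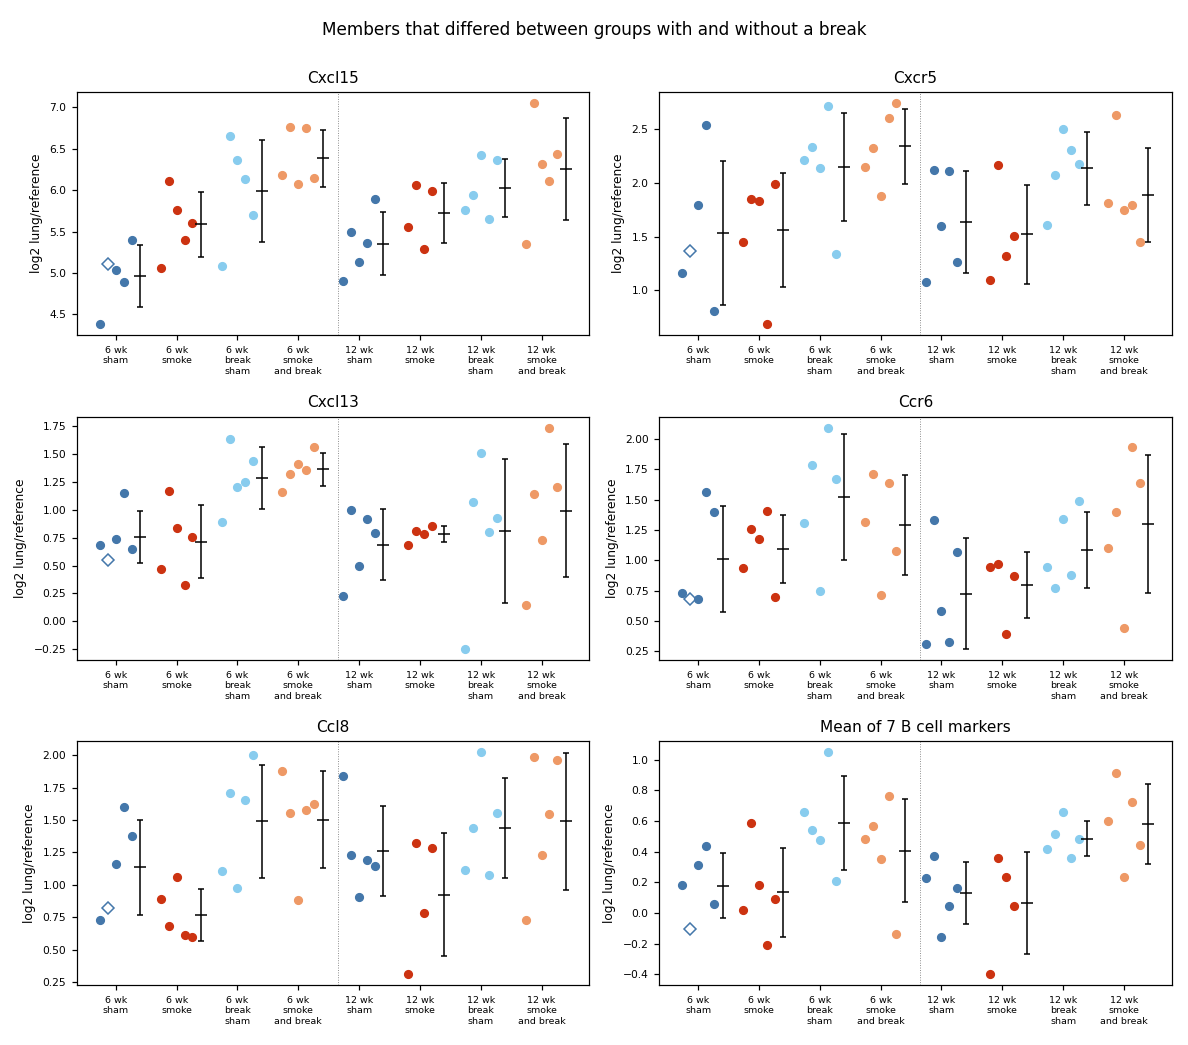
Log2 ratio of lung to reference of Cxcl15, Cxcr5, Cxcl13, Ccr6 and Ccl8, and the mean of 7 B cell markers, in each lung, by group, with the mean and SD beside each group; an open diamond marks sham array m2 of the 6 week arm. Break groups sit above the corresponding groups without a break on average, and the single lungs overlap.

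Ccl8, listed here with the monocyte-attracting CC ligands, ran from 0.73 to 2.02 (median 1.55) with a break and from 0.31 to 1.84 (median 1.06) without. The fold change was 0.45 (SE 0.11, adjusted p = 0.00591 by limma, and 0.42 with adjusted p = 0.011 without m2). Its 4 lowest values were from smoke groups without a break: 0.89, 0.68, 1.06, 0.61 and 0.60 in 6 week smoke and 0.31, 1.32, 0.78 and 1.29 in 12 week smoke. Cxcl1 was the member that was lower with a break, with a fold change of -0.47 (SE 0.11, 0.724-fold, adjusted p = 0.00397, and -0.43 with adjusted p = 0.00693 without m2). It missed the threshold in the Cy5 channel alone (-0.42, adjusted p = 0.0517) and with the arrays scaled to equal spread (-0.26, adjusted p = 0.227). Its medians were -3.86 with a break and -3.37 without, and the 4 lungs of 12 week smoke were the highest of all 39. In shams alone the difference was -0.44 (SE 0.21) in the 6 week arm, or -0.30 without m2, and -0.46 (SE 0.21) in the 12 week arm, neither past the adjusted threshold. Cxcl16 was at -0.27 (adjusted p = 0.0818), and with the array labelled 6 week sham m2 left out it passed (-0.30, adjusted p = 0.0482). Ccl20 was at -0.32 (adjusted p = 0.0532), and at -0.27 without m2.

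The 6 week break shams and the 12 week shams were sampled at the same time after the start. They differ in the break and also in weeks of restraint, 6 against 12, and these cannot be told apart here. There no member passed (all probes 0.0399%; unadjusted 6 of 39, 15.4%, all probes 9.85%). Ccr6 was closest, at 0.31, 1.33, 0.58, 0.33 and 1.07 in 12 week sham and 1.31, 1.79, 0.75, 2.09 and 1.67 in 6 week break sham, a fold change of 0.80 (SE 0.18, adjusted p = 0.0791 by limma) that was positive in all 5 label runs. Cxcl15 had 0.63 (SE 0.19) and Cxcl13 0.60 (SE 0.18), both with adjusted p = 0.19. Between 12 week sham and 6 week sham, which differ in weeks of restraint and age without a break, no member passed either (all probes 0%; unadjusted 0 of 39, all probes 6.86%). Without m2 the unadjusted count was 2, Ccr6 and Xcl1, both lower. Cxcl15 differed by 0.32 (SE 0.19), or 0.33 without m2, and Ccr6 by -0.31 (SE 0.18), or -0.42 without m2.

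Around the ligands and receptors stand other genes of the system: platelet chemokines, atypical receptors, G proteins, kinases and adhesion molecules. The 51 symbols listed include older and newer names of the same genes. Of them 38 had a probe and 36 were tested. None passed at 6 weeks, at 12 weeks or over both durations of smoke, where 21 of 36 were above 0 with a median of 0.09. With a break, 3 of 36 were higher and 1 lower, a share close to the 8.3% of all probes. Vcam1, the endothelial ligand of integrin alpha 4, was at 0.31 (adjusted p = 0.00184 by limma), Ppbp, a platelet chemokine, at 0.44 (adjusted p = 0.0246), and Rac2, a leukocyte GTPase, at 0.25 (adjusted p = 0.0114). Ackr3 was at -0.31 (adjusted p = 0.0391), and missed the threshold with the array labelled 6 week sham m2 left out (adjusted p = 0.0555).

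The members differed in how widely their group means ranged. Cxcl15 spanned 1.42 on the log2 scale, Ccr2 1.42 and Cxcl1 1.29, while Xcr1, a dendritic cell receptor, spanned 0.19 and Ccr1l1 0.22. Ccl2, the prototype monocyte chemoattractant, spanned 0.25, with its lowest mean, -3.11, in 12 week break sham and its highest, -2.86, in 12 week smoke. Of the 39 genes tested, 22 were above the threshold on all 39 arrays. Ccl1, Ccl11, Ccl25, Ccr4, Ccr8, Ccr9, Ccr10, Cxcl11 and Cxcr1 were not bright enough to be tested.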

How the data were processed

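The authors scanned each array, quantified the spots with ImaGene 5.5 and deposited intensity values of spot and background per dye, not yet normalized, and log2 ratios after global LOWESS, used here as an alternative. From the medians, normexp background correction (offset 50) and loess within arrays gave 1 log2 ratio per probe, in R 4.3.3 with limma 3.58.1. A probe was kept where Cy5 exceeded the array's threshold (trimmed mean plus 3 trimmed SD of 162 negative control spots) on at least 4 arrays of 1 group. A single limma fit of all 39 arrays held the 8 group means and the label run, 1 of 5 successive sets read from the exposure-date labels, as a block, with Benjamini-Hochberg adjustment over 17560 probes. The authors' model was a blocked factorial ANOVA. The p-values set a difference against the spread of arrays, 1 per mouse, that is left after group and label run. The number of arrays limits the precision. A gene with several probes is given by the brightest. Named genes are members past adjusted p 0.05 in any comparison, the 3 largest rises and falls with smoke at an unadjusted p under 0.05, and their receptors or ligands; others named beside these were chosen after their values were seen. Members and lists were chosen with earlier results of these data known. The fit was tested on simulated data.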

Additional observations from a re-analysis of the deposited data

Results flagged for a closer look

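Among 21 named genes in 8 groups, 5 of 168 group sets held a lung whose gap to the nearest other lung took up most of the group's range, and chance gives about 5% of sets such a lung. The values are log2 ratios of lung to reference. Ccr6 in 12 week smoke was 0.39 in m3, against 0.87 in the next lung. In 12 week smoke and break, Ccl12 was -1.05 in m1, against -0.10, and Cxcr2 was 2.19 in m1, against 0.87. In 12 week break sham, Cxcl5 was -1.38 in m5, against -2.77, and Cxcl12 was -0.36 in m2, against 0.47. No difference between the smoke effects at 6 and 12 weeks passed the adjusted threshold in any member.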

How the results depend on the processing

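Of 449 log2 fold changes of named members recomputed under other settings (arrays left out apart), 402 kept their direction and their side of the threshold, and of 190 counts of called members 169 stayed within 1.5 times. At 12 weeks of smoke the count rose from 0 to 1 with median centring (Cxcl12), scaling between arrays (Cxcl1) or adjusted p under 0.1 (Cx3cl1), and to 3 with marked spots left out or array weights (Cx3cl1, Cxcl1 and Cxcl12). Other settings weakened these 12 week differences. Over the 16 settings, adjusted p by limma reached 0.946 for Cxcl12, 0.47 for Cxcl1 and 0.417 for Cx3cl1, with no change of direction. For both durations the count of 1 became 0 with median centring, the authors' log2 ratios, no filter, no block, only the groups compared, or the lung channel alone, 2 with spot means or adjusted p under 0.1, and 4 with marked spots left out. For 6 week break sham against 6 week sham the count of 1 became 0 with scaling, spot means, marked spots left out, no block, or only the groups compared. Against 12 week sham it was 2 with array weights and 1 at adjusted p under 0.1. The causes were not tested. Leaving out each array in turn gave 0 or 1 members for both durations and for 6 week break sham against 6 week sham, and 6 to 8 for the break. For the break, Cxcl13 also missed the threshold with spot means (0.25, adjusted p = 0.0547) and no block (0.38, adjusted p = 0.0572), Ccr6 with no block (0.39, adjusted p = 0.0758) and Ccl8 with marked spots left out (0.40, adjusted p = 0.204), a setting that left no fit for Cxcl15, Cxcr5 and Cxcl13. Direction turned for values near 0 over both durations of smoke. Cxcr2 was 0.0464 with no background correction, 0.0425 from the authors' ratios, 0.13 with spot means, 0.0083 with array weights and 0.22 in the lung channel. Cx3cr1 was -0.0254 with median centring, -0.0575 with spot means, -0.002 in the groups compared and -0.19 in the lung channel. Cxcr4 was 0.0112 with median centring, 0.0398 with marked spots left out, 0.0513 with no block, 0.0228 with array weights and 0.0889 in the lung channel. With an array left out, Cxcr2 ran from -0.25 to 0.10, Cx3cr1 from -0.0609 to 0.0598 and Cxcr4 from -0.10 to 0.0745. Ccl4 at 6 weeks was 0.0811 in the lung channel. The 22 arrays without which Cx3cl1 missed the threshold were 12 week smoke m1 to m3, 6 week smoke m1, m2, m3 and m5, 6 week sham m3 to m5, 12 week sham m1, m2 and m5, 6 week break sham m3, 12 week break sham m2 and m5, 6 week smoke and break m1, m2 and m4, and 12 week smoke and break m1 to m3. The lung channel and both break comparisons were chosen after seeing the data. A block for scan date or slide was not run, as the files used here give neither. No paired analysis was possible because the labels' replicate numbers pair no mice.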
